A study of Mus musculus with 12 samples.

Results

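The cytosolic ribosomal protein genes encode the protein parts of the ribosome that works in the cytosol. The set was chosen with earlier results of these data known, and its members were defined by symbol. They are protein-coding mouse genes named Rpl or Rps with a number (and the endings a, x or a1), Rplp0 to Rplp2, or Rpsa. Pseudogenes were left out by this rule. This gave 77 of the 78334 genes in the count table, 46 of the large subunit and 31 of the small subunit, and 76 of them (45 large, 31 small) had enough counts to be tested. Rpl24 was the exception, with 77 counts in all and 2 to 10 in a library.

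The 12 libraries, made from poly(A)-selected RNA of the left ventricle, came from separate mice, 4 in each of 3 groups. Sham vehicle mice had a sham operation and ate normal chow. UNX/DOCA vehicle mice also ate normal chow and had the UNX/DOCA operation, in which a kidney is removed and deoxycorticosterone acetate, a mineralocorticoid, is given, a model of diastolic dysfunction in which the heart relaxes poorly. In the UNX/DOCA ITF2357 group this operation was followed, after 4 weeks, by 4 weeks on chow that held ITF2357 (givinostat), an inhibitor of histone deacetylases. Both vehicle groups had the same times, 4 weeks from the operation to the chow period and 4 weeks on normal chow in it. No Sham group received the drug, and the sources used here do not give strain, sex or age. All values are from whole left ventricular tissue, in which fewer cells of a type and less RNA per cell cannot be told apart.

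Cells make these proteins in step with ribosomal RNA in the nucleolus, where assembly factors join them into the subunits. In heart muscle, growth under load is known to come with more ribosome production. Their mRNAs belong to the TOP class, which starts with a C followed by a run of pyrimidines (C and T), and through this run the kinase mTOR and the protein LARP1 set how fast they are translated and how stable they are. Ribosomal protein genes are highly expressed in nearly every cell type, and several of them (Rplp0, Rpl13a, Rpl19, Rpl32 and Rps18) serve as reference genes for normalization.

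RefSeq promoters of build GRCm38.p6, each 250 bases before to 50 bases after the annotated start of a gene, were found for 57 of the 77 genes. A pyrimidine run of at least 8 bases that reached within 5 bases of the start stood in 19 of these 57 (33.3%), against 9.63% of all 27025 promoters and 10.3% of 68 promoters of mitochondrial ribosomal protein genes. It was about as frequent in the large subunit (32.4% of 34) as in the small subunit (34.8% of 23). The starts below show both kinds: Rpl28, Rpl27a, Rpl7a, Rps6 and, outside the symbol rule, the ribosomal protein genes Fau and Rack1 carry a long run, while Rpl22, Rpl36a, Rpl9, Rps19, Rps16 and Rps21 carry a shorter one or none at the annotated start. Rpl3l is the muscle paralog of Rpl3. Each line holds the 20 bases before the start and the 20 bases from it, with the longest pyrimidine run that touches the 5 bases on either side of the start in capitals.
Rpl28, chr7:4792945-4792984, plus strand: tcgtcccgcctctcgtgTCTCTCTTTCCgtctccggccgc
Rpl27a, chr7:109519175-109519214, plus strand: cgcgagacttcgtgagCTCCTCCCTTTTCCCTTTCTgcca
Rpl7a, chr2:26910787-26910826, plus strand: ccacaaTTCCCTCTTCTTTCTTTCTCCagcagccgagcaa
Rps6, chr4:86857348-86857387, minus strand: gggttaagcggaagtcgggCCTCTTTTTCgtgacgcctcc
Fau, chr19:6057927-6057966, plus strand: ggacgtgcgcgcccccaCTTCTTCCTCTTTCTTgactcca
Rack1, chr11:48800340-48800379, plus strand: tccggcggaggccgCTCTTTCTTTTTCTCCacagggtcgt
Rps21, chr2:180257359-180257398, plus strand: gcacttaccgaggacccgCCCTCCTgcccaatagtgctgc
Rps19, chr7:24884572-24884611, plus strand: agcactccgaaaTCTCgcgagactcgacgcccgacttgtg
Rps16, chr7:28350669-28350708, plus strand: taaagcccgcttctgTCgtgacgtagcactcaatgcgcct
Rpl22, chr4:152325706-152325745, plus strand: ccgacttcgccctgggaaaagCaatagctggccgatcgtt
Rpl36a, chrX:134585634-134585673, plus strand: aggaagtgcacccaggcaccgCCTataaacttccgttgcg
Rpl9, chr5:65391412-65391451, minus strand: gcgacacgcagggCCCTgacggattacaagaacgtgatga
Rpl3l, chr17:24727806-24727845, plus strand: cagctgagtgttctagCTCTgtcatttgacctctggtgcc

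Further motifs were searched on both strands of the same promoters. CCGGAAG, a core bound by ETS factors, was present in 40.4% of the 57 promoters, against 9.12% of all promoters and 35.3% of those of mitochondrial ribosomal protein genes. A palindrome of 10 bases known from promoters of housekeeping genes, printed in capitals for Rps6 below, was present in 8.77% against 0.496%. TATAAA, the TATA box, was present in 8.77% against 14.2%, and the E box CACGTG, which Myc can bind, in 8.77% against 7.24%. The 100 bases before the start of Rps6, Rps21 and Rpl19 show how these letters lie. The capitals mark CCGGAAG or its reverse complement in all of them, the palindrome as the second capital stretch of Rps6, and the E box as the second of Rpl19.
Rps6, chr4:86857368-86857467, minus strand: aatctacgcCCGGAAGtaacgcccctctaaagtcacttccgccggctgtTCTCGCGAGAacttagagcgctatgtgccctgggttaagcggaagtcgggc
Rps21, chr2:180257279-180257378, plus strand: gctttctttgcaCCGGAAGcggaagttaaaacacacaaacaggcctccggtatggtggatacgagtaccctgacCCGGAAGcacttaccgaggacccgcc
Rpl19, chr11:98026610-98026709, plus strand: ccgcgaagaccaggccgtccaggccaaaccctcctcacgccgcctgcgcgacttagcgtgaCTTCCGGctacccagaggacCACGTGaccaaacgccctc
These matches describe letters in a window and not binding, and the annotated start may differ from the start used in the heart.

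Ribosomal protein mRNAs took a small and even share of the libraries, and the share was highest under ITF2357. The summed share of all counts was 1.095%, 1.094%, 1.112% and 1.091% in the 4 Sham vehicle libraries. It was 1.132%, 1.098%, 1.203% and 1.211% in the UNX/DOCA vehicle libraries. It was 1.285%, 1.198%, 1.362% and 1.331% in the UNX/DOCA ITF2357 libraries. All 4 ITF2357 libraries lay above all Sham libraries, while ITF2357 library 2 lay below UNX/DOCA vehicle libraries 3 and 4, and UNX/DOCA vehicle library 2 lay within the Sham range. The means were 1.098% ± 0.00949, 1.161% ± 0.0550 and 1.294% ± 0.0714 (SD, n = 4). Both subunits had the same order of group means: the large subunit held 0.630%, 0.670% and 0.747% of the counts and the small subunit 0.468%, 0.491% and 0.547%. In the same order of groups, the ratio of large to small subunit counts was 1.349 ± 0.0126, 1.364 ± 0.00377 and 1.365 ± 0.0173, and the differences between these means were of about the size of the SD within the Sham and ITF2357 groups.

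**Figure D1:**
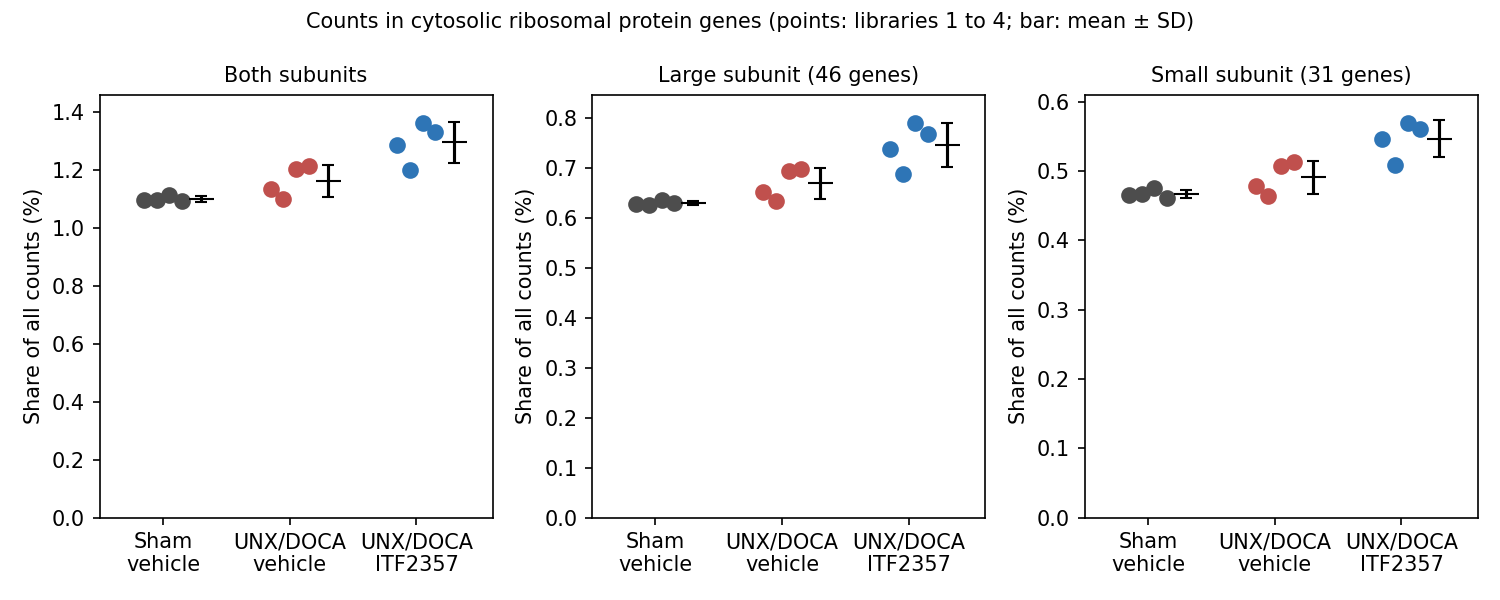
Share of all counts (percent, y axis) in the ribosomal protein genes of both subunits, of the large subunit and of the small subunit, by group; each point is 1 library in the order 1 to 4, and the bar gives the mean ± SD. The Sham libraries sit together near 1.098% for both subunits, and the ITF2357 libraries reach from 1.198% to 1.362%.

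Total counts ran from 23354045 to 34908810 per library, and mitochondrially encoded genes took 23.7% to 27.8% of them. Of nuclear counts alone, the ribosomal protein genes took 1.474% ± 0.0229, 1.553% ± 0.0511 and 1.754% ± 0.104 in the 3 groups in the same order. Cardiomyocyte markers were high in all 12 libraries (summed level 45710 to 55500 CPM, counts per 1000000 counts), as the labelled tissue calls for, and UNX/DOCA vehicle libraries 3 and 4 stood apart by their neutrophil markers (526 and 160 CPM, against 3.69 to 46.01 CPM in the other 10 libraries).

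Levels of single genes are given in CPM after TMM scaling and, where genes are compared with each other, in CPM per kilobase of coding sequence. Coding length was settled on as the divisor after levels with other lengths had been seen, and that choice changed which genes were highest but not which were lowest. On that per-length scale the median of the 76 genes was 312, and the middle of the range was narrow, with quartiles at 253 and 391. Rpl41, Rplp1 and Rps29 were the highest at 2354, 1161 and 879 CPM per kb. Rpl41 encodes a peptide of the large subunit with a coding sequence of only 75 bases, so reads from its untranslated parts weigh heavily in this value. Rplp1 is a protein of the stalk, the arm of the large subunit that recruits elongation factors, and Rps29 is a small zinc-binding protein of the small subunit. At the lower end stood Rps10, Rps18 and Rpl13a with 1.35, 4.67 and 6.48 CPM per kb, and the next gene was Rplp0, the anchor of the stalk, with 41.0.

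**Figure D2:**
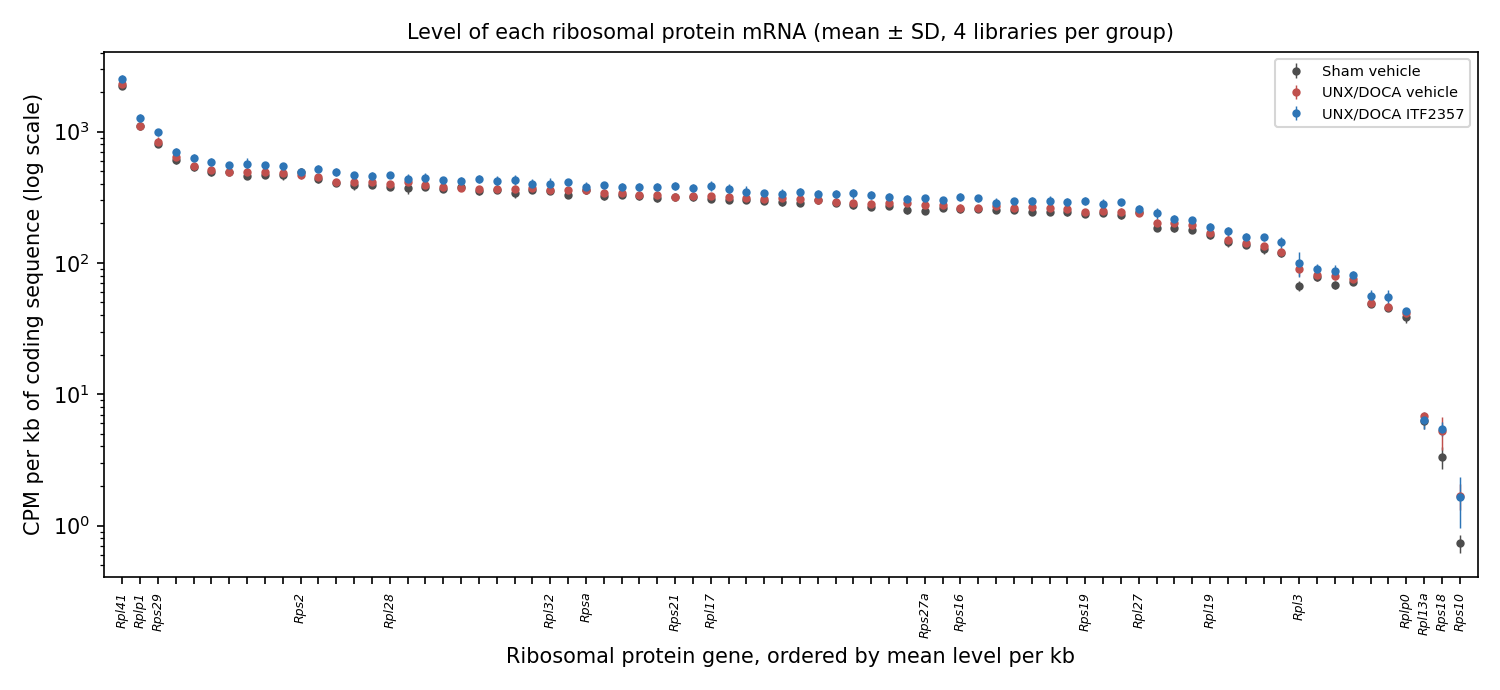
Level of each of the 76 tested ribosomal protein genes in CPM per kb of coding sequence (y axis, log scale), ordered by mean level, with symbols for the genes picked by the naming rule; points are group means and bars the SD of 4 libraries. Most genes lie within a narrow band around 312 CPM per kb, and Rpl13a, Rps18 and Rps10 lie far below it in all 3 groups.

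Rps10, Rps18, Rpl13a and Rpl24 are core proteins, 2 of the small and 2 of the large subunit, and they were counted far less than the other members, with 229, 717, 1341 and 77 counts in all over the 12 libraries, where the next lowest member, Rpl29, had 7907. Ribosomal protein genes have many near-identical processed pseudogenes, and a read that matches several places may be dropped or placed at a copy. The median share of a gene's coding 50-mers (stretches of 50 bases) that also occur in transcripts of other annotated genes was 93.05%, and it was 93.05% for Rps10, 87.7% for Rps18, 97.5% for Rpl13a and 100% for Rpl24. Rpl28 and Rps27a also stood at 100% and had 171 and 131 CPM. Rps3 shared 8.09% and Rpl8 8.73% of their 50-mers. Reads were of 150 bases in pairs, longer than these stretches, so a read that holds a shared 50-mer may still match a single place. The treatment of reads that match several places is not stated for the authors' counting, so the level of any single member is uncertain. The part of pseudogene copies in the low counts was not tested. Among the genes counted, 298 pseudogenes carry a member's symbol with the ending -ps and a number, and 199 of them had counts. Their summed share was 0.0237% for Sham vehicle libraries, 0.0260% for UNX/DOCA vehicle and 0.0299% for ITF2357. Copies with other symbols are not in this share, so it does not measure all copies.

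The comparison of UNX/DOCA vehicle with Sham vehicle asks what the disease model does to the left ventricle. Ribosomal protein mRNAs were slightly above Sham, and no member passed the test. The log2 fold change was above 0 for 71 of 76 genes with a median of 0.07 in the large subunit (43 of 45 above 0) and 0.07 in the small subunit (28 of 31 above 0), while over all 16981 genes tested the median was 0.01 and 51.1% were above 0. edgeR's quasi-likelihood test with Benjamini-Hochberg adjustment over all genes called 0 members and 0% of all genes, DESeq2 called 0 members higher and 2.69% of all genes, and limma-voom 1 member and 1.91% of all genes. At an unadjusted p under 0.05, 6 members were higher and 0 lower, against 9.42% and 6.47% of all genes. In 3 members (Rps10, Rpl3 and Rpl14, the last named for being in this count) all UNX/DOCA vehicle libraries lay above all Sham libraries, against 5.03% of all genes. Without UNX/DOCA vehicle libraries 3 and 4, in which the neutrophil markers were highest, the median fell to 0.01, with 48 of 76 genes above 0, and without library 4 alone it was 0.04.

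Rpl3, which lies near the peptidyl transferase centre of the large subunit, was the abundant gene with the smallest p in that comparison. It had 75.8, 74.3, 87.0 and 88.3 CPM in Sham vehicle, 109, 90.7, 121 and 114 CPM in UNX/DOCA vehicle, and 85.7, 118, 147 and 131 CPM in UNX/DOCA ITF2357. UNX/DOCA vehicle libraries were all above Sham libraries, and ITF2357 library 1 lay within the Sham range. The log2 fold change was 0.42 ± 0.14 (SE) for UNX/DOCA vehicle against Sham vehicle (edgeR adjusted p = 0.203), 0.15 ± 0.14 for ITF2357 against UNX/DOCA vehicle (adjusted p = 0.609) and 0.57 ± 0.14 for ITF2357 against Sham vehicle (adjusted p = 0.0612).

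Its paralog Rpl3l is made in heart and skeletal muscle and can take the place of Rpl3 in the ribosome. Rpl3l had 218, 215, 257 and 231 CPM in Sham vehicle, 208, 212, 193 and 192 CPM in UNX/DOCA vehicle, and 237, 196, 221 and 222 CPM in UNX/DOCA ITF2357. The UNX/DOCA vehicle libraries were all below the Sham libraries, the opposite order to Rpl3, and the ITF2357 libraries overlapped both groups. The log2 fold change was -0.19 ± 0.08 for UNX/DOCA vehicle against Sham vehicle and did not pass the test (adjusted p = 0.251), and it was 0.12 ± 0.08 for ITF2357 against UNX/DOCA vehicle (adjusted p = 0.417). Per kb of coding sequence and with groups in the order just used, Rpl3l stood at 189, 165 and 179 CPM and Rpl3 at 67.3, 89.8 and 99.6 CPM, with Rpl3l the higher of the pair in each group. Rpl3 shares 95.7% of its coding 50-mers with other genes, so its level, and with it this order, is uncertain. The difference between the fold changes of Rpl3 and Rpl3l was not tested. Of the 8 paralogs with names outside the rule, 5 were tested (Rpl3l with Rpl22l1, Rpl7l1, Rps27l and Rps4l, of which Rps4l is annotated as a transcribed processed pseudogene), and 0 were called in any comparison, with log2 fold changes for ITF2357 against UNX/DOCA vehicle between -0.05 and 0.12. Rpl22l1, Rpl7l1, Rps27l and Rps4l overlapped between groups in every comparison, at 3.44 to 5.03, 41.8 to 50.9, 33.8 to 45.98 and 6.33 to 12.6 CPM over the 12 libraries.

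Low-count members had the largest fold changes in the first comparison, and none passed. Rps10 had 0.380, 0.391, 0.277 and 0.401 CPM in Sham vehicle, 0.675, 1.067, 0.707 and 0.899 CPM in UNX/DOCA vehicle, and 1.29, 0.790, 0.623 and 0.539 CPM in UNX/DOCA ITF2357. All 8 UNX/DOCA libraries lay above Sham (log2 fold change 1.20 ± 0.31 without the drug, adjusted p = 0.123, and 1.15 ± 0.31 with it, adjusted p = 0.0727), on 229 counts over all 12 libraries. Rps18 had 1.37, 1.34, 1.42 and 1.96 CPM in Sham vehicle, 1.45, 2.84, 2.83 and 2.41 CPM in UNX/DOCA vehicle and 2.81, 2.40, 2.10 and 2.61 CPM in UNX/DOCA ITF2357. UNX/DOCA vehicle library 1 was within the Sham range, and the log2 fold change was 0.65 ± 0.22 (adjusted p = 0.204). The lowest values of the first comparison were -0.06 for Rps2, -0.03 for Rpl27 and -0.02 for Rpsa, the laminin receptor protein of the small subunit, each smaller than its SE.

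The second comparison, UNX/DOCA ITF2357 against UNX/DOCA vehicle, asks what the drug does to hearts that already have the disease. Ribosomal protein mRNAs were higher under ITF2357 by a small and even step, and again no single member passed. The log2 fold change was above 0 for 74 of 76 genes, with a median of 0.17 in the large subunit (44 of 45) and 0.18 in the small subunit (30 of 31). Over both subunits the median was 0.18, or 1.13-fold, with quartiles at 0.13 and 0.21, while over all genes tested the median was -0.00 and 49.8% were above 0. edgeR called 0 members, where it called 0.459% of all genes higher and 0.442% lower (0.901% in either direction). DESeq2 called 12 members higher and 2.50% of all genes, and limma-voom 0 members and 0.783% of all genes. At an unadjusted p under 0.05, 48 members were higher and 0 lower, against 8.70% and 9.79% of all genes. In every comparison the median SE was 0.07 for members and 0.17 for all genes tested. Members also varied together over the libraries, so counts of members are not counts of independent genes. In 27 members (13 large, 14 small) all ITF2357 libraries lay above all UNX/DOCA vehicle libraries, against 4.95% of all genes. With UNX/DOCA vehicle libraries 3 and 4 left out the median was 0.21, and with each library left out in turn it ran from 0.14 to 0.21.

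The members with the smallest p under ITF2357 were 3 of the small subunit. Rps21, one of its smallest proteins, had 74.8, 73.7, 83.5 and 82.8 CPM in UNX/DOCA vehicle, 99.8, 87.6, 94.6 and 102 CPM in UNX/DOCA ITF2357, and 82.2, 74.7, 80.2 and 78.9 CPM in Sham vehicle. The ITF2357 libraries were above the other 8, which overlapped. The log2 fold change of Rps21 against UNX/DOCA vehicle was 0.29 ± 0.07 (adjusted p = 0.0711), that of Rps16, whose tail reaches the tRNA in the P site, was 0.28 ± 0.07 (adjusted p = 0.0769), and that of Rps19, whose human form is the gene most often mutated in Diamond-Blackfan anaemia, was 0.28 ± 0.07 (adjusted p = 0.0788). Rps16 had 103, 114, 122 and 121 CPM in UNX/DOCA vehicle and 146, 129, 136 and 149 CPM in ITF2357, again without overlap. The 2 members below 0 were Rpl13a at -0.09 ± 0.14 (adjusted p = 0.761) and Rps10 at -0.05 ± 0.29 (adjusted p = 0.948), both with few counts.

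The third comparison, UNX/DOCA ITF2357 against Sham vehicle, shares its groups with the other comparisons and so adds no independent samples. Here 9 members rose and 0 fell at an edgeR adjusted p under 0.05, 7 of 45 in the large subunit (Rpl28, Rpl17, Rpl36, Rpl22, Rpl36a, Rpl9 and Rpl8) and 2 of 31 in the small subunit (Rps27a and Rps19), while over all genes 0.913% rose and 0.842% fell (1.75% in either direction). All 76 members were above 0, with a median log2 fold change of 0.24 (1.19-fold), 0.23 in the large and 0.27 in the small subunit, against a median of 0.01 and 52.3% above 0 over all genes. At an unadjusted p under 0.05, 69 members were higher and 0 lower, against 10.7% and 9.39% of all genes. In 47 members (27 large, 20 small) all ITF2357 libraries lay above all Sham libraries, against 7.27% of all genes, and 0 members had the opposite order, against 6.39%. The 9 calls lay close to the threshold, between adjusted p values of 0.0328 and 0.0498, and the next genes, Rps29, Rpl5 and Rps16, had 0.0516, 0.0520 and 0.0526. Their number changed with single libraries: it was 0 without Sham library 1, 2 or 4, without UNX/DOCA vehicle library 4 or without ITF2357 library 3 or 4, 1 without UNX/DOCA vehicle library 2, 3 without ITF2357 library 1, and 23 without UNX/DOCA vehicle library 3. The share of all genes called higher moved too, to between 0.052% and 0.371% in the 6 fits with 0 members. It was 0.568% in the fit with 1 member, 0.799% in the fit with 3 and 1.69% in the fit with 23. DESeq2 called 43 members and 3.48% of all genes higher, and limma-voom 56 members and 4.62% of all genes. Over all genes 155 were higher and 143 lower, a split that became 214 and 89 with upper-quartile scaling and 172 and 98 with library totals. The median of the members stayed between 0.19 and 0.28 with any 1 library left out.

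**Figure D3:**
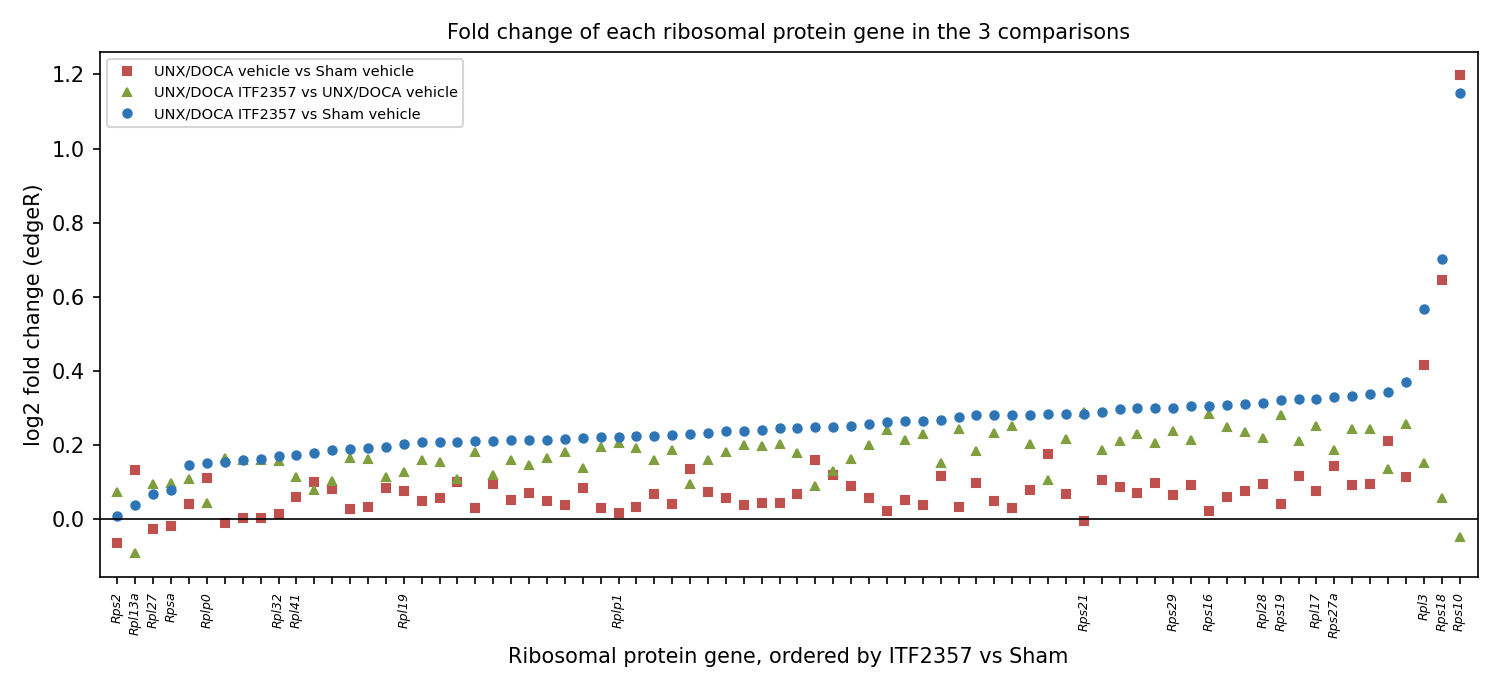
log2 fold change of each of the 76 tested ribosomal protein genes (y axis, edgeR) in the 3 comparisons, with genes ordered by ITF2357 against Sham vehicle and symbols given for the genes picked by the naming rule. Most genes lie near 0.07 for UNX/DOCA vehicle against Sham, near 0.18 for ITF2357 against UNX/DOCA vehicle and near 0.24 for ITF2357 against Sham, while Rpl3, Rps18 and Rps10 are apart on the right.

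Rps27a, which is made as a fusion with ubiquitin and cleaved, had the smallest p of the third comparison. It had 111, 112, 124 and 123 CPM in Sham vehicle, 123, 128, 133 and 135 CPM in UNX/DOCA vehicle, and 143, 143, 145 and 159 CPM in UNX/DOCA ITF2357. The ITF2357 libraries were above the other 8, and UNX/DOCA vehicle library 1 lay within the Sham range. Rps27a rose by a log2 fold change of 0.33 ± 0.06 against Sham (adjusted p = 0.0328) and did not pass against UNX/DOCA vehicle (0.19 ± 0.06, adjusted p = 0.152).

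Rpl28 is a large subunit protein found in animal and plant but not in yeast ribosomes. It had 153, 148, 164 and 157 CPM in Sham vehicle, 154, 163, 172 and 173 CPM in UNX/DOCA vehicle, and 192, 179, 195 and 206 CPM in UNX/DOCA ITF2357. All ITF2357 libraries were above all others, by a log2 fold change of 0.31 ± 0.07 against Sham (adjusted p = 0.0366), and of all members Rpl28 followed the mean of the others most closely over the 12 libraries (r = 0.988). Rpl17, at the exit of the peptide tunnel, had 163, 165, 180 and 172 CPM in Sham vehicle and 199, 195, 225 and 231 CPM in ITF2357, without overlap, and rose by 0.32 ± 0.07 (adjusted p = 0.0383). Rps2, a protein of the mRNA entry channel, did not show this pattern: it had 395, 440, 474 and 411 CPM in Sham vehicle, 423, 424, 370 and 428 CPM in UNX/DOCA vehicle and 429, 401, 432 and 466 CPM in ITF2357, and all 3 groups overlapped (0.01 ± 0.08 against Sham, adjusted p = 0.973).

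**Figure D4:**
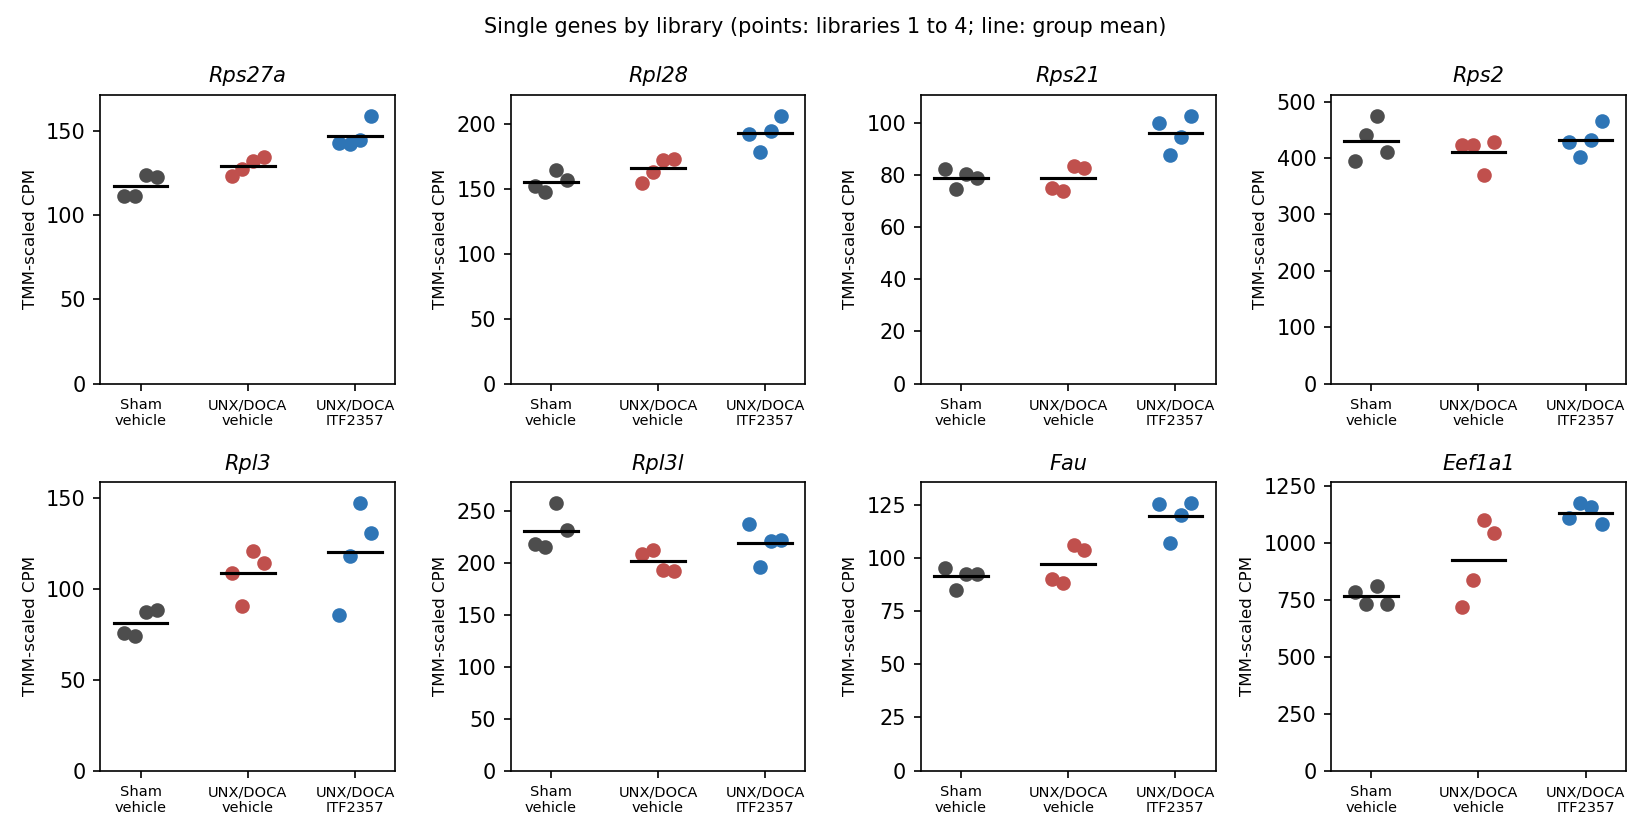
TMM-scaled CPM (y axis, from 0) of 8 genes by group; each point is 1 library in the order 1 to 4 and the line is the group mean. Rps27a, Rpl28, Rps21 and Fau have all ITF2357 libraries above the other libraries, Rps2 overlaps in all groups, and Rpl3 and Rpl3l have UNX/DOCA vehicle libraries above and below Sham, respectively.

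None of the 5 reference genes passed in any comparison, and their values differed widely. Rplp0 had 34.4, 33.6, 41.7 and 36.9 CPM in Sham vehicle, 37.6, 38.6, 40.1 and 41.8 CPM in UNX/DOCA vehicle, and 39.7, 38.0, 41.4 and 43.7 CPM in ITF2357, with overlap in every comparison. Its log2 fold changes were 0.11, 0.04 and 0.15 in the order of the comparisons above, each with an SE of 0.08. Rpl32, a large subunit protein, stood at 0.01, 0.16 and 0.17, and Rpl19, also of the large subunit, at 0.07, 0.13 and 0.20. Rpl13a, at 3.31 to 4.72 CPM over the 12 libraries, stood at 0.13, -0.09 and 0.04, and Rps18, at 1.34 to 2.84 CPM, at 0.65, 0.06 and 0.70. The adjusted p of the 5 genes was 0.11 or more in every comparison. Rplp1 stood at 0.02, 0.20 and 0.22, Rpl41 at 0.06, 0.11 and 0.17, and Rps29 at 0.06, 0.24 and 0.30. Rplp1 and Rps29 had ITF2357 libraries above UNX/DOCA vehicle libraries without overlap and did not pass (adjusted p = 0.142 and 0.113).

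Members varied together. Across the 12 libraries the correlation of a member's log2 CPM with the mean of the other members had a median of 0.926, and 68 of 76 were above 0.8. With group means removed the median was 0.854. These values are descriptions over 12 libraries, and members share depth and scaling within a library. The lowest were Rpl13a at 0.103, Rps2 at 0.324, Rps10 at 0.357, Rpsa at 0.580 and Rps18 at 0.635. The median coefficient of variation within groups was 6.33% for the members, 16.5% for all genes tested and 8.48% for genes of at least 100 CPM, and it was 15.2% for Rpl3, the highest in the large subunit.

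Fold changes were compared between members with different sequence features. For ITF2357 against UNX/DOCA vehicle the median was 0.16 for the 19 genes with a pyrimidine run of at least 8 bases at the annotated start and 0.19 for the 37 without it. It was 0.16 for the 23 with CCGGAAG and 0.19 for the 33 without it. For the 8 genes that share 20% to 60% of their coding 50-mers with other genes the median was 0.19, and for the 65 that share over 60% it was 0.18. Of the 76 members, 74 have a coding sequence under 1000 bases. Over the other protein-coding genes the median for UNX/DOCA vehicle against Sham was 0.04 for 4171 genes with a coding sequence under 1000 bases and -0.13 for 955 genes of 4000 bases or more, and for ITF2357 against Sham it was 0.04 and -0.12. For ITF2357 against UNX/DOCA vehicle it was -0.01 and -0.00. The 391 of these short genes with at least 100 CPM had medians of -0.01, 0.01 and 0.02 for UNX/DOCA vehicle against Sham, ITF2357 against UNX/DOCA vehicle and ITF2357 against Sham. The part of coding length in the members' values was not tested. None of these differences was tested.

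Fau and Rack1 are ribosomal protein genes that lack an Rpl or Rps name. Fau encodes a fusion from which the small subunit protein RPS30 is released, and its groups had the order of the members. It had 95.2, 84.9, 92.5 and 92.5 CPM in Sham vehicle, 90.02, 88.3, 106 and 104 CPM in UNX/DOCA vehicle, and 125, 107, 120 and 126 CPM in ITF2357. The ITF2357 libraries were above all others; the log2 fold change against Sham was 0.39 ± 0.08 (adjusted p = 0.0366), a call lost without any single Sham library, without UNX/DOCA vehicle library 4 or without ITF2357 library 1, 3 or 4, with an adjusted p of at most 0.120 over all settings. Against UNX/DOCA vehicle it was 0.30 ± 0.08 (adjusted p = 0.0857). Rack1, a scaffold on the head of the small subunit, had 263, 264, 283 and 272 CPM in Sham vehicle and 308, 301, 323 and 335 CPM in ITF2357, without overlap, and did not pass (0.23 ± 0.06, adjusted p = 0.0617).

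Other parts of the translation machinery were compared as lists. Of 8 elongation factors, 1 rose against Sham under ITF2357 and 0 were called in the other comparisons. This was Eef1a1, the factor that brings tRNA to the ribosome and itself a TOP mRNA, with 785, 731, 811 and 732 CPM in Sham vehicle, 720, 836, 1101 and 1045 CPM in UNX/DOCA vehicle and 1109, 1173, 1155 and 1083 CPM in ITF2357. UNX/DOCA vehicle libraries 3 and 4 were near the ITF2357 libraries and libraries 1 and 2 near Sham, and the log2 fold change against Sham was 0.56 ± 0.11 (adjusted p = 0.0332). That call was lost without Sham library 1, 2 or 4 or without ITF2357 library 2, 3 or 4, with an adjusted p of at most 0.106 over all settings. For ITF2357 against UNX/DOCA vehicle the list medians were 0.04 for elongation factors, -0.01 for 28 initiation factors and 0.01 for 19 other TOP mRNAs, beside 0.18 for the ribosomal proteins. For ITF2357 against Sham they were 0.13 (6 of 8 above 0), 0.04 (20 of 28) and 0.18 (17 of 19), beside 0.24 for the ribosomal proteins, and 2 of the 19 other TOP mRNAs, Fau and Eef1a1, were called. These differences between lists were not tested. Within the TOP list values ran from -0.54 for Naca, a subunit of the complex that meets nascent chains at the ribosome (adjusted p = 0.0755), to 0.30 for Fau.

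Ribosome assembly factors, which process ribosomal RNA and build the subunits in the nucleolus, had another order of groups. Of 56 genes, 50 were above 0 in UNX/DOCA vehicle against Sham (median 0.15) and 7 in ITF2357 against UNX/DOCA vehicle (median -0.14), and 0 were called in any comparison. In 17 of them all UNX/DOCA vehicle libraries lay above all Sham libraries, against 5.03% of all genes, and in 10 all ITF2357 libraries lay below all UNX/DOCA vehicle libraries, against 4.36% of all genes. Rrp12, which helps export the subunits from the nucleus, had 28.8, 26.2, 27.1 and 29.6 CPM in Sham vehicle, 40.6, 37.9, 43.8 and 45.7 CPM in UNX/DOCA vehicle, and 19.9, 36.9, 28.9 and 23.5 CPM in ITF2357. The UNX/DOCA vehicle libraries were above all others; the log2 fold change was 0.59 ± 0.15 against Sham (adjusted p = 0.123) and for ITF2357 against UNX/DOCA vehicle -0.62 ± 0.15 (adjusted p = 0.0705). Nop56, a core protein of the box C/D particles that methylate ribosomal RNA, had 20.3, 19.98, 22.2 and 22.4 CPM, then 26.05, 25.99, 28.97 and 26.5 CPM, then 21.6, 23.5, 23.5 and 24.3 CPM in the groups in the same order (0.34 ± 0.07, adjusted p = 0.0954, then -0.21 ± 0.07, adjusted p = 0.159). Ppan, needed for large subunit maturation, stood at 0.63 and -0.51 in these comparisons, and Nhp2, of the box H/ACA particles, at 0.25 and -0.33. Npm1, the abundant nucleolar protein nucleophosmin, stood at 0.23 and -0.01. Both lists thus had a median above 0 in UNX/DOCA vehicle against Sham, 0.15 for assembly factors and 0.07 for ribosomal proteins. The ribosomal protein median fell when the libraries highest in neutrophil markers were left out, as given above. In the library scores plotted below, assembly factors in UNX/DOCA vehicle (0.0762 to 0.1512) lay above Sham (-0.1083 to -0.0116). Ribosomal proteins in UNX/DOCA vehicle (-0.1026 to 0.0415) overlapped Sham (-0.1662 to -0.0328). For ITF2357 against UNX/DOCA vehicle the medians of the lists had opposite signs, and this difference between the lists was not tested.

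**Figure D5:**
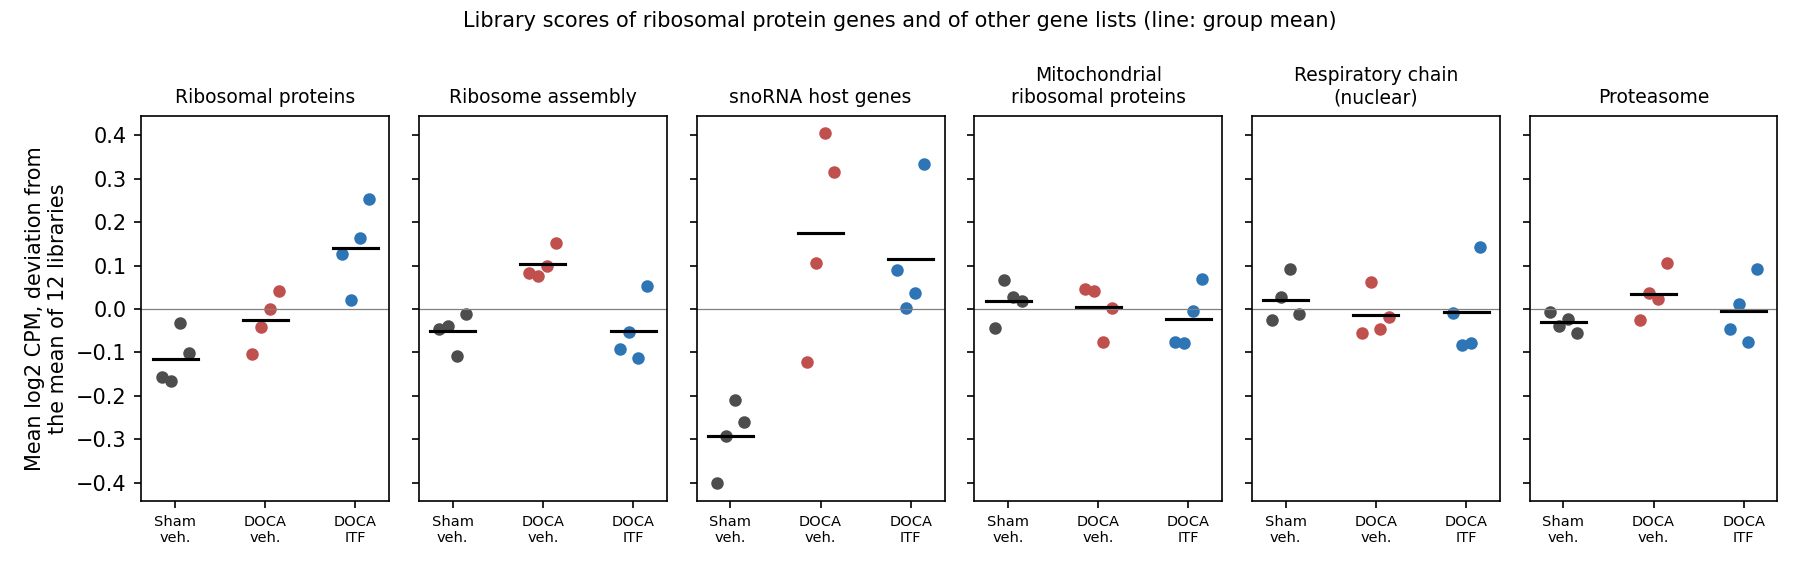
Score of each library (y axis, mean log2 CPM of a list's genes as a deviation from the mean of the 12 libraries) for ribosomal proteins and 5 other gene lists; points are libraries 1 to 4 of Sham vehicle, UNX/DOCA vehicle (DOCA veh.) and UNX/DOCA ITF2357 (DOCA ITF), and lines are group means. Ribosomal proteins have their highest group mean under ITF2357 (0.141) and ribosome assembly factors in UNX/DOCA vehicle (0.103).

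The host genes of small nucleolar RNAs, many of them TOP transcripts with no protein of their own, were above Sham in both UNX/DOCA groups. All 9 tested were above 0 in UNX/DOCA vehicle (median 0.43) and all 9 under ITF2357 (median 0.40), against Sham, and 0 were called. For ITF2357 against UNX/DOCA vehicle the median was -0.13, with 4 of 9 above 0 and 0 called, beside 0.18 for the ribosomal proteins. This difference between the lists was not tested. Snhg8 had 3.65, 2.91, 3.17 and 3.40 CPM in Sham vehicle, 3.44, 4.33, 4.49 and 3.92 CPM in UNX/DOCA vehicle and 4.36, 3.83, 5.02 and 5.55 CPM in ITF2357, with ITF2357 above Sham without overlap (0.51 ± 0.15, adjusted p = 0.0893). Snhg15 stood at 0.86 ± 0.25 in UNX/DOCA vehicle against Sham (adjusted p = 0.148). In ITF2357 against UNX/DOCA vehicle Snhg15 stood at -0.56 ± 0.25 (adjusted p = 0.251), Snhg6 at -0.24 and Snhg8 at 0.21.

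Lists with other roles had medians near 0 for ITF2357 against UNX/DOCA vehicle. The median was -0.01 over 76 mitochondrial ribosomal protein genes, which build the separate ribosome of mitochondria, -0.04 over 12 RNA polymerase I genes, -0.02 over 22 genes of mTOR and Myc control, 0.02 over 76 nuclear genes of the respiratory chain, and -0.03 over 38 proteasome genes. Among these lists 1 gene was called in this comparison, the immunoproteasome subunit Psmb10, which fell by 0.76 on the log2 scale (SE 0.14, adjusted p = 0.0300), and 0 were called in the others. That call was lost without Sham library 2 or 4, UNX/DOCA vehicle library 4 or ITF2357 library 1, 3 or 4.

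Markers of cell types other than muscle also differed between libraries. All 10 macrophage markers were above Sham in UNX/DOCA vehicle (median 0.60) and 1 of 10 was above 0 in ITF2357 against UNX/DOCA vehicle (median -0.41), with 0 called. Their summed level was 227 to 321 CPM in Sham vehicle, 248 to 654 CPM in UNX/DOCA vehicle (highest in libraries 3 and 4, which also had the larger ribosomal protein shares of that group) and 218 to 376 CPM in ITF2357, and none was at 0. ITF2357 library 1 had the lowest macrophage level of all 12 libraries, 218 CPM, and a ribosomal protein share of 1.285%, above every library of the vehicle groups. Fibroblast markers summed to 763 to 957, 872 to 1513 and 746 to 936 CPM, and 7 of 8 were above 0 in UNX/DOCA vehicle against Sham and 1 of 8 in ITF2357 against UNX/DOCA vehicle. Cardiomyocyte markers summed to 48790 to 55500, 45710 to 51450 and 48710 to 53340 CPM. Of these 8 markers, 1 was above 0 in UNX/DOCA vehicle against Sham (median -0.12). In ITF2357 against UNX/DOCA vehicle 6 of 8 were above 0 (median 0.09), and in ITF2357 against Sham 3 of 8 (median -0.10). Erythroid markers summed to 422 to 549, 165 to 352 and 239 to 586 CPM, and all 6 were below Sham in both UNX/DOCA groups. B cell markers summed to 1.67 to 3.799, 1.00 to 3.69 and 0.370 to 0.785 CPM. Under ITF2357, edgeR called 2 of 3 lower against UNX/DOCA vehicle, beside 0.442% of all genes, and 2 of 3 against Sham, beside 0.842%. These calls are at low levels and were not put through the other settings. The part of these cell types in the ribosomal protein differences was not tested.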

How the data were processed

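The authors deposited raw counts per Ensembl gene for 12 libraries; the submitters' processing notes name FastQC 0.11.9, the aligner STAR 2.7.10b and the build mm39. About 10 mg of tissue and reads of 150 bases in pairs were used, per the labels. The sources used here do not give the counting tool, strand setting or annotation. Groups came from sample titles, since a treatment field numbers the drug libraries differently. Symbols, gene types and coding lengths came from a GRCm38 annotation by Ensembl identifier (symbols covered at least 99.2% of counts), and positions of genes were not used. Genes were filtered with filterByExpr (10 counts), TMM-scaled and tested with edgeR 4.0.16 in R 4.3.3 (quasi-likelihood, robust, a term per group, 12 libraries, 9 residual degrees of freedom, biological coefficient of variation 0.187), with Benjamini-Hochberg adjustment over 16981 genes at 0.05. SE is the absolute log2 fold change over the square root of F. The prior count of log2 CPM in scores was 2. Alternatives were other scalings, filters, DESeq2 1.42.0, limma 3.58.1 (voom), a replicate block, 2-group fits, pseudogene counts added, and libraries left out. The test was tried on simulated data. Replicate counts varied 10.7 to 55.8 times more than counting error (chi-square per degree of freedom), so no libraries were merged. Members, lists and the rule for named genes (the 3 smallest p per direction and comparison, the 3 highest and lowest per kb, reference genes, paralogs, and up to 2 genes per list and comparison) were chosen with earlier results of these data known. The text describes fewer genes of the pathway lists than the rule names, a choice made after their values were seen; all 70 were put through the alternatives and the outlier screen. Coding length per kb and coding 50-mers were chosen after lengths and 50-mers of whole transcripts, which gave implausible lengths and lower shared parts, had been seen. Rpl36, Rpl22, Rpl36a, Rpl9, Rpl8, Rpl5, Rpl14 and the genes whose sequences are shown were named after their values were seen. Shares of genes called by DESeq2 are over those with an adjusted p. Results of some genes are not reported here.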

Additional observations from a re-analysis of the deposited data

Results flagged for a closer look

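Among 222 sets of 4 libraries (the shares of counts and every gene the naming rule selects, by group), 18 had 1 library far from the other 3, by Dixon's 95% limit for the gap to the nearest value over the whole range. Chance gives about 1 in 20 such sets. Among the members, Rps27a was high in ITF2357 library 4 (158.9 CPM, the others 142.7 to 144.7), Rps10 low in Sham library 3 (0.2769 CPM, the others 0.3802 to 0.4005) and Rps18 high in Sham library 4 (1.962 CPM, the others 1.341 to 1.424). Rps2 was low in UNX/DOCA vehicle library 3 (369.7 CPM, the others 423.3 to 427.8), and Rps29 high in Sham library 3 (141.0 CPM, the others 133.1 to 133.4).

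Among paralogs, Rpl22l1 was high in UNX/DOCA vehicle library 3 (5.028 CPM), Rps27l in UNX/DOCA vehicle library 4 (42.72 CPM) and ITF2357 library 4 (45.98 CPM), and Rpl7l1 was low in Sham library 3 (41.94 CPM). In the other lists, Sham library 3 was high for Eif3f (117.7 CPM) and Npm1 (134.7 CPM) and low for Cox6a1 (38.65 CPM), and Sham library 4 was high for Nhp2 (13.5 CPM). UNX/DOCA vehicle library 3 was high for Larp1 (111.4 CPM, the others 85.64 to 86.52), the gene of a protein that binds TOP mRNAs, and for Psmd11 (92.72 CPM). ITF2357 library 3 was high for Eef1a2 (1173 CPM), library 4 for Snhg6 (3.77 CPM), and library 1 low for Cox6a1 (36.27 CPM).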

How the results depend on the processing

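No member was called lower in any comparison under any setting run. Members called higher in ITF2357 against Sham vehicle (9, beside 0.913% of all genes) numbered 19 with upper-quartile scaling (1.26%), 20 with library totals (1.01%), 0 with no filter (0.368%), 17 with a filter of 1 CPM in 4 libraries (1.39%), 43 with DESeq2 (3.48%), 56 with limma-voom (4.62%), 14 without UNX/DOCA vehicle libraries 3 and 4 (1.34%), and 0 to 23 with 1 library left out, where 17 to 616 genes were called in either direction. In ITF2357 against UNX/DOCA vehicle (0) they numbered 12 with DESeq2 (2.50%) and 0 with 1 library left out, and in UNX/DOCA vehicle against Sham vehicle (0) 1 with limma-voom (1.91%) and 0 to 1 with 1 library left out. The cause of these moves was not tested. The share of counts was 1.108% in Sham vehicle with RLE scaling, 1.121% with named pseudogenes added, and 1.474%, 1.553% and 1.754% in the groups over nuclear genes; with 1 library left out it ran from 1.093% to 1.100%, 1.144% to 1.182% and 1.271% to 1.326%. The medians with 1 library left out ran from 0.04 to 0.08, 0.14 to 0.21 and 0.19 to 0.28 in the order of the report. Same-numbered libraries of 2 groups correlated between -0.187 and 0.246 (median 0.005, 12 pairs) after centring. A library correlated best with its own number in 6 of 24 cases, so numbers do not pair animals. In the order of the report, a replicate block called 0, 0 and 6 members higher, beside 0.153%, 0.165% and 0.53% of all genes.

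Of 2829 values of the 118 single-gene results under other settings, 2641 kept direction and call, 99 gained a call, 47 lost one and 42 changed sign. For UNX/DOCA vehicle against Sham, Rpsa turned to 0.0036 with library totals and 0.0206 with limma-voom, and ran from -0.0697 to 0.0118 with 1 library left out. Rplp1 turned to -0.0024 with no filter and -0.0167 without UNX/DOCA vehicle libraries 3 and 4 (-0.021 to 0.0438 with 1 left out), Rpl32 to -0.0058 and -0.02 (-0.0406 to 0.0374), and Rpl7l1 to -0.01 with no filter and -0.0273 with limma-voom (-0.0561 to 0.0292). Without UNX/DOCA vehicle libraries 3 and 4, Rps29 was -0.0135, Rpl41 -0.0093 and Fau -0.034. For ITF2357 against UNX/DOCA vehicle, Rps10 was 0.3146 with named pseudogenes added (-0.3591 to 0.0984 with 1 left out) and Rps18 ran from -0.1204 to 0.1594. Rpl22l1 turned to 0.0214 with upper-quartile scaling, 0.0156 with limma-voom and 0.0804 without UNX/DOCA vehicle libraries 3 and 4 (-0.0781 to 0.0788), and with limma-voom Rps4l was -0.0475 (-0.0576 to 0.1547) and Rps27l -0.0301 (-0.0427 to 0.0893). Rpl13a under ITF2357 against Sham ran from -0.0776 to 0.1203. Few counts limit Rps10, Rps18, Rpl13a and Rpl24.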
